A study of Mus musculus with 6 samples.

Results

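The Hippo pathway and its nuclear effectors were followed here through 10 genes: the kinase genes Lats1 and Lats2, the co-activator genes Yap1 and Wwtr1 (which encodes TAZ), the 4 genes of the TEAD family, Tead1 to Tead4, and the target genes Ccn1 (also called Cyr61) and Ccn2 (also called Ctgf). They were chosen by name for their place in the pathway, with earlier results of these data known. They were matched to the array through the RefSeq accession of each probe. All 10 were found, with 17 probes among the 56605 non-control probes of the array, which carried 22911 named genes. There was 1 probe each for Yap1, Wwtr1, Tead3, Ccn1 and Ccn2, and several for the other 5 genes.

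The samples were 2 endothelial populations sorted from the small intestine of female mice, with 3 one-color Agilent arrays each. Vascular endothelial cells (VECs, arrays VEC 2, VEC 3 and VEC 4) were CD45- CD31+ CD90-, and lymphatic endothelial cells (LECs, arrays LEC 6, LEC 7 and LEC 8) were CD45- CD31+ CD90+. Up to 10000 cells of a population were sorted into Trizol for each RNA, which was amplified before it was labeled with Cy3. The comparison asks which transcripts differ between blood vascular and lymphatic endothelium of the gut. No treatment or genetic change is named for either population, and the strain and age of these mice are not given in the sources used here. The labels do not say whether the samples came from separate mice, so p-values measure only the spread between these samples, which may be technical. One label conflicts: VECs are written in the description of the LEC samples, against their title and source. The cell markers sided with the title. Prox1, the master regulator of lymphatic identity, was 41.3-fold higher in LECs, and Flt1, a receptor of blood vascular endothelium, was 59.0-fold higher in VECs.

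Hippo signaling is a kinase cascade that holds back growth. The MST kinases, helped by adaptor proteins, activate LATS1 and LATS2, which phosphorylate YAP and TAZ and so keep them out of the nucleus. YAP and TAZ that reach the nucleus bind DNA through TEAD factors and switch on genes such as Ccn1 and Ccn2, which code for secreted matrix proteins, and Lats2 itself, a negative feedback. In endothelium, YAP and TAZ are known to respond to flow and cell shape, and are needed for vessel sprouting and for the growth of lymphatic vessels. Arrays measure transcripts, whereas this pathway acts mostly on the phosphorylation and location of proteins, which were not measured.

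TEAD factors bind the letters GGAATG, read as CATTCC on the other strand. These letters were searched on both strands in the 250 bases before each transcript start of the RefSeq annotation of GRCm38.p6. Windows were at hand for 7 of the 10 genes. Ccn2, Tead1 and Tead4 had none and were not searched. Of the 7, 4 held the letters, namely Yap1, Wwtr1, Tead3 and Ccn1. Of all 27025 genes with a window, 14.4% held them. A match is a description of the sequence and no measurement of binding. The window of Ccn1, a classical TEAD target, is shown whole (chr3:145649986-145650235, minus strand, 5′ to 3′ toward the start). Its match is in capitals and begins 103 bases before the start.
Ccn1: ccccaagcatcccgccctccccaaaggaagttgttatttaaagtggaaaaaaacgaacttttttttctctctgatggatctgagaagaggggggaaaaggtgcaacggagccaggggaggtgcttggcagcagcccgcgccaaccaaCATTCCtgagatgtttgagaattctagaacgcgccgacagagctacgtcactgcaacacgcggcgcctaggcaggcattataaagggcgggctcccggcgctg

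The matches of the other 3 genes are shown with the 10 bases on either side, because they place the letters of the TEAD factors before genes of the YAP, TAZ and TEAD proteins themselves. Those of Yap1 (chr9:8004722-8004747) and Wwtr1 (chr3:57576031-57576056) and one of those of Tead3 (chr17:28350708-28350733) are printed along the minus strand, on which these genes lie. Along it Tead3 reads CATTCC, and its stretch also holds another match, left in lower case. The 2 target genes Amotl2 (chr9:102717729-102717754, plus strand) and Ptpn14 (chr1:189728112-189728137, plus strand) are shown beside them, since their products also bind YAP or hold it back. They were picked from the 6 of 15 target genes with a window that held the letters.
Yap1: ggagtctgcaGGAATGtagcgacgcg
Wwtr1: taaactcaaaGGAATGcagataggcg
Tead3: cggccgggctCATTCCgtacattccg
Amotl2: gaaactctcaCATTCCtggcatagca
Ptpn14: tccccggacgCATTCCtggcccgccc

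Yap1, Tead1, Tead3 and Ccn2, 4 of the 10 genes, were higher in LECs. Another 3, Lats2, Tead4 and Ccn1, were lower, and Wwtr1, Lats1 and Tead2 did not pass. The test was limma's moderated test over all 33776 probes above background, two-sided, with a Benjamini-Hochberg adjusted p under 0.05. By the same rule 66.9% of the 14971 named genes tested were called, 34.9% higher and 32.0% lower in LECs, and 64.0% of all probes were called. A share of 7 in 10 is thus near the background of these cell types and is no result about the pathway. By their representative probes, only Tead4 and Ccn1 passed with at least a 2-fold difference, by which 25.1% of the named genes were called. The median difference of the 10 genes was 0.22 on the log2 scale, LEC minus VEC, against 0.02 over all named genes tested. Their median size without sign was 0.57, against 0.46. On these arrays Tead4 ranked highest of the 10 by size, with a difference larger than that of 82.7% of the named genes, and Wwtr1 lowest, at 13.4%. For 9 of the 10 genes, all except Wwtr1, the 3 VEC arrays did not overlap the 3 LEC arrays, as held for 75% of the named genes. A lower signal from a sorted population can come from fewer cells with the transcript or from less of it per cell, and these cannot be told apart here.

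**Figure D1:**
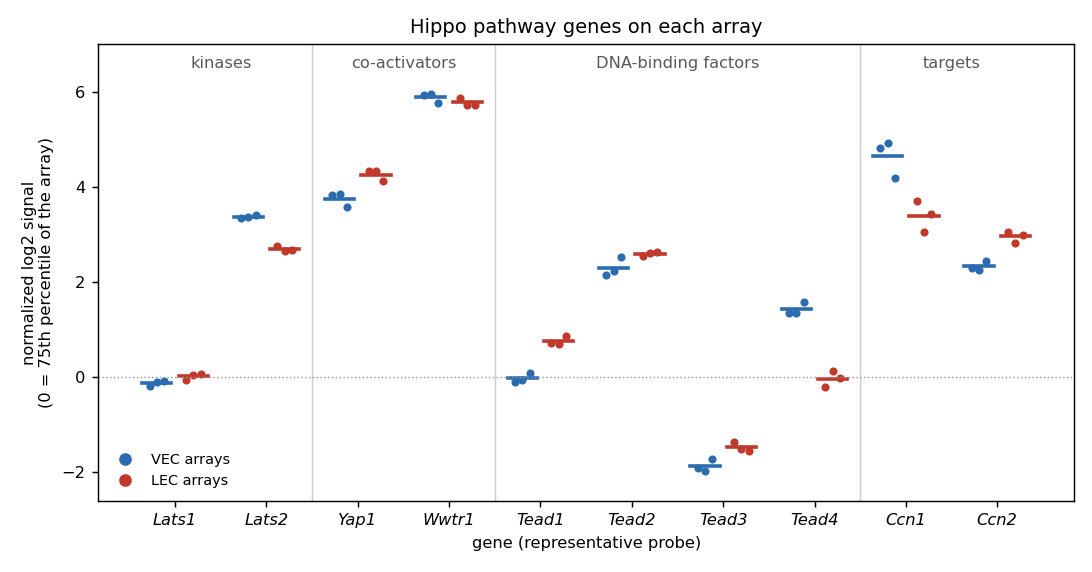
Normalized log2 signal (y axis, 0 is the 75th percentile of the array) of the representative probe of each of the 10 genes (x axis) in VECs (blue) and LECs (red), 1 point for each of 3 arrays, with a line at each group mean. The groups overlap for Wwtr1 alone, and levels are to be compared within a gene, since probes differ in brightness.

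Of the kinase pair at the end of the cascade, only Lats2 passed the test. Values here and below are log2 intensities minus the 75th percentile of their array. The representative probe of Lats2, the brighter of its tested probes, read 3.33, 3.36 and 3.40 in VECs and 2.75, 2.66 and 2.68 in LECs. Every LEC array was below every VEC array, and the arrays of a group lay close together. The level was 1.59-fold lower in LECs (log2 difference -0.67, SE 0.061, adjusted p = 0.0002). A second Lats2 probe to the same transcript read 0.75, 0.72 and 0.73 in VECs and -0.40, -0.59 and -0.44 in LECs, a 2.31-fold lower level. The third, to another Lats2 transcript, gave a log2 difference of -0.07 (adjusted p = 0.58) and did not pass.

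Lats1 read -0.18, -0.10 and -0.08 in VECs and -0.05, 0.05 and 0.06 in LECs. The groups did not overlap but lay close together, and the log2 difference of 0.14 did not pass (SE 0.067, 95% interval -0.026 to 0.30, adjusted p = 0.12). Its other probe leaned the opposite way, with a log2 difference of -0.17 (adjusted p = 0.13). The mean of both probes gave -0.017, and with no scaling between arrays the first probe was called higher (log2 difference 0.37, adjusted p = 0.027), so no direction is given for Lats1.

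Of the co-activators, Yap1 passed the test and Wwtr1 did not, which does not show that the pair differed from each other. Yap1 read 3.82, 3.84 and 3.56 in VECs and 4.32, 4.32 and 4.12 in LECs. All LEC arrays lay above all VEC arrays, and VEC 4 and LEC 8 were the lowest of their groups. Yap1 was 1.43-fold higher in LECs (log2 difference 0.52, SE 0.11, 95% interval 0.26 to 0.78, adjusted p = 0.0063).

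Wwtr1, the gene of TAZ, read 5.94, 5.95 and 5.75 in VECs and 5.86, 5.72 and 5.72 in LECs. The groups overlapped, since VEC 4 was below LEC 6. The log2 difference of -0.11 did not pass (SE 0.084, 95% interval -0.31 to 0.097, adjusted p = 0.29), and its sign turned with no scaling between arrays (0.12) and with quantile normalization (0.043). A difference inside that interval is not excluded, so equal levels are not shown.

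Among the DNA-binding partners the 4 TEAD genes split. Tead1 read -0.10, -0.07 and 0.08 in VECs and 0.71, 0.70 and 0.85 in LECs, with a wide gap between the groups. It was 1.72-fold higher in LECs (log2 difference 0.78, SE 0.081, adjusted p = 0.00034). A second Tead1 probe was higher too (log2 difference 0.52, adjusted p = 0.0025), whereas the third gave -0.01 (adjusted p = 0.88) and did not pass. All 3 Tead1 probes were assigned to the same transcript.

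Tead4 went the other way. It read 1.35, 1.35 and 1.58 in VECs and -0.22, 0.13 and -0.02 in LECs, with more than 1 log2 unit between the nearest arrays of the groups. Its level was 2.75-fold lower in LECs (log2 difference -1.46, SE 0.12, adjusted p = 0.00011). The dimmer second probe, well above background on 2 of the 3 LEC arrays, was 2.44-fold lower. That probe entered the test through the VEC arrays alone, so no p-value is given for it. Tead4 kept its direction and its call under all 23 alternative settings tried.

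Tead3 read -1.92, -1.98 and -1.73 in VECs and -1.36, -1.51 and -1.56 in LECs. The groups lay side by side without overlap, and the level was 1.32-fold higher in LECs (log2 difference 0.40, SE 0.096, adjusted p = 0.012). Tead3 was a dim probe, and the call was lost with another background correction (log2 difference 0.12, adjusted p = 0.16).

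Tead2 read 2.15, 2.22 and 2.52 in VECs and 2.54, 2.61 and 2.63 in LECs. VEC 4 reached almost to the LEC arrays, and the log2 difference of 0.30 just missed the threshold (SE 0.11, 95% interval 0.030 to 0.56, adjusted p = 0.053). Without VEC 4 it passed (log2 difference 0.41, adjusted p = 0.0050), as it did under 5 other settings.

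**Figure D2:**
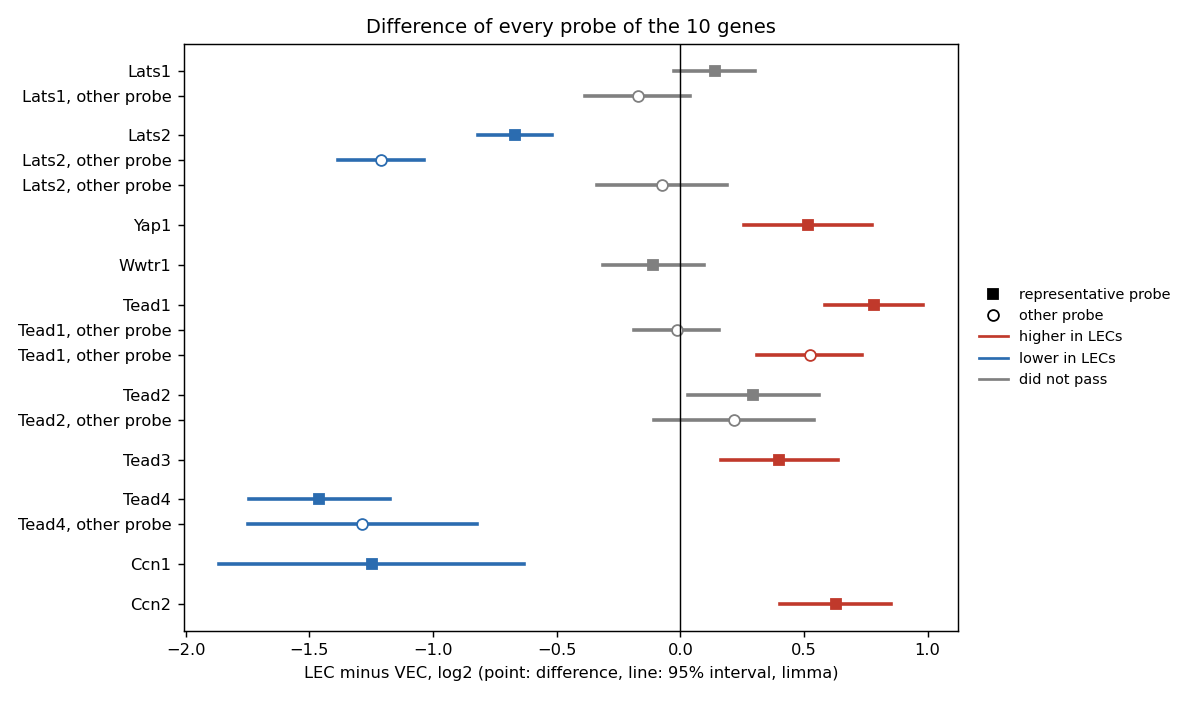
Log2 difference, LEC minus VEC (x axis), of each of the 17 probes of the 10 genes (y axis), with the 95% interval from limma. Squares are representative probes and circles are other probes. Of the genes with several probes, Lats2 and Tead1 each had 2 probes that passed and 1 near 0, and both Tead4 probes were lower in LECs.

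The target pair, encoding the secreted matrix proteins CCN1 and CCN2, went in opposite directions. Ccn2 read 2.29, 2.24 and 2.44 in VECs and 3.05, 2.82 and 3.00 in LECs, all LEC arrays above all VEC arrays. It was 1.55-fold higher in LECs (log2 difference 0.63, SE 0.091, adjusted p = 0.0015). Ccn1 read 4.82, 4.92 and 4.18 in VECs and 3.71, 3.04 and 3.43 in LECs. The groups did not overlap, but the arrays of a group were spread more widely than for any other of the 10 genes (SD 0.40 in VECs and 0.33 in LECs). Ccn1 was 2.37-fold lower in LECs (log2 difference -1.25, SE 0.25, 95% interval -1.86 to -0.63, adjusted p = 0.0059).

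The slide row of the arrays was followed as well. All 6 arrays were on 1 slide, the VEC arrays and LEC 6 in its first row and LEC 7 and LEC 8 in its second. A comparison within a row, or with row as a block, therefore rests on LEC 6 alone against the VEC arrays, and it cannot separate the row from the loss of the other LEC arrays. For Ccn1, which was highest of the LEC arrays on LEC 6, it gave a log2 difference of -0.93 (adjusted p = 0.094 in the first row alone, where LEC 6 was assumed to vary like the VEC arrays, and 0.073 with row as a block), and the call was lost. Whether slide row bears on Ccn1 was not tested. In the first row alone the log2 difference of Yap1 was 0.58, of Tead1 0.74, of Tead3 0.52 and of Ccn2 0.72, and those of Lats2 and Tead4 were -0.61 and -1.64.

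Ccn1 is also an immediate early gene, which cells switch on within minutes of a stimulus such as tissue dissociation. A list of 20 immediate early and dissociation genes was therefore set beside it. Of these, 17 were lower in LECs, 2 were higher (Hspa1b, a heat shock gene, and Klf6) and Hspa1a did not pass, where 32.0% of all named genes tested were lower and 34.9% higher. The median log2 difference of the list was -1.96. The log2 difference was -4.00 for Egr3, -3.33 for Ier3, -3.16 for Egr2 and -3.05 for Nr4a1. The summed level of the list, in units of each array's 75th percentile, was 2500 to 3117 in VECs and 1028 to 1224 in LECs. All 20 genes were lowest among the VEC arrays on VEC 4, and 16 of 20 lowest among the LEC arrays on LEC 7. Ccn1 was lowest of its group on the same arrays. The share of all named genes lowest on these arrays was not counted, so these counts have no background. Ccn2 was highest among the VEC arrays on VEC 4 and, like Ccn1, lowest among the LEC arrays on LEC 7. The part of this gene program in the Ccn1 result was not tested.

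**Figure D3:**
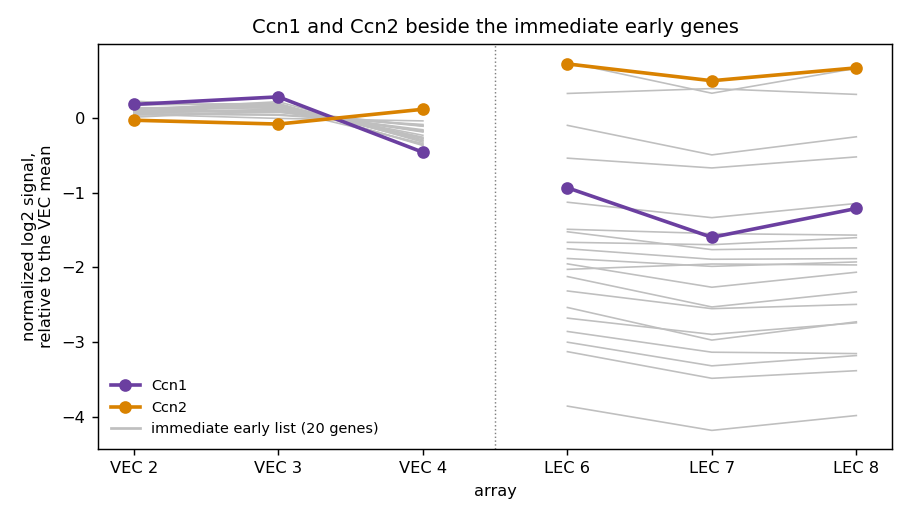
Normalized log2 signal relative to the VEC mean of the gene (y axis) on each array (x axis), for Ccn1 (purple), Ccn2 (orange) and the 20 immediate early and dissociation genes (gray). Lines join the arrays of a group to follow a gene and imply no order. Ccn1 and the gray genes dip on VEC 4, where Ccn2 is at its highest among VEC arrays, while Ccn1, Ccn2 and 16 gray genes are lowest among LEC arrays on LEC 7.

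The genes with the array pattern most like that of Ccn1, by Euclidean distance of the normalized log2 values over the 6 arrays among 14971 named genes, were Ribc1 (0.266), Cxcl1, a chemokine gene (0.283), and Cnfn (0.289). For Ccn2 they were Hyal2, which encodes a hyaluronidase (0.0419), Grsf1, which encodes an RNA-binding protein (0.0503), and Yipf5 (0.0775). The neighbors of Ccn2 lay nearer than those of Ccn1. Values were first centered on the mean of each gene, so a gene of any brightness could be named if it differed in the same direction.

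The other CCN genes were read with their relatives. Ccn4 was 3.31-fold lower in LECs (log2 difference -1.73), with 2 of 3 LEC arrays well above background. Its probe entered the test through the VEC arrays alone, so no p-value is given for Ccn4. Ccn3 did not pass (log2 difference -0.34, adjusted p = 0.092). Ccn5 and Ccn6 were at background throughout the 6 arrays. Ccn2 was thus the one CCN gene called higher in LECs among the 4 tested.

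Relatives were also set against each other within each array, where the scaling between arrays cancels. A ratio within an array shows unequal change of the pair and not which gene moved. For 6 pairs chosen within families, the groups did not overlap in any. Each gave p = 0.1 in the exact two-sided permutation test, which is the smallest p that 3 against 3 arrays allow, and 0.1 after adjustment over the 6 pairs, so none could pass. The log2 ratio of Ccn2 over Ccn1 was -2.52, -2.68 and -1.74 in VECs and -0.66, -0.22 and -0.43 in LECs, a 3.67-fold shift toward Ccn2 in LECs. The ratio of Tead4 over Tead1 was 1.44, 1.42 and 1.50 in VECs and -0.93, -0.57 and -0.87 in LECs, a 4.74-fold shift toward Tead1. These pairs had the widest shifts of the 6.

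The ratio of Wwtr1 over Yap1 was 2.12, 2.11 and 2.19 in VECs and 1.54, 1.40 and 1.60 in LECs, so that it was 1.54-fold lower in LECs. That of Lats2 over Lats1 was 3.51, 3.45 and 3.48 in VECs and 2.80, 2.60 and 2.62 in LECs, 1.75-fold lower. Tead2 over Tead1 was 1.40-fold lower and Tead3 over Tead1 1.30-fold lower in LECs. The choice of probe mattered for 3 of the pairs. Over all pairs of probes the log2 shift ran from -1.35 to 0.10 for Lats2 over Lats1, from -0.57 to 0.31 for Tead2 over Tead1 and from -0.38 to 0.41 for Tead3 over Tead1, so these reversed with some probes. For Tead4 over Tead1 it ran from -2.24 to -1.27 and kept its sign. Among the 5426 named genes with several tested probes, 29.5% had probes with different calls and 2.49% had probes called in opposite directions.

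**Figure D4:**
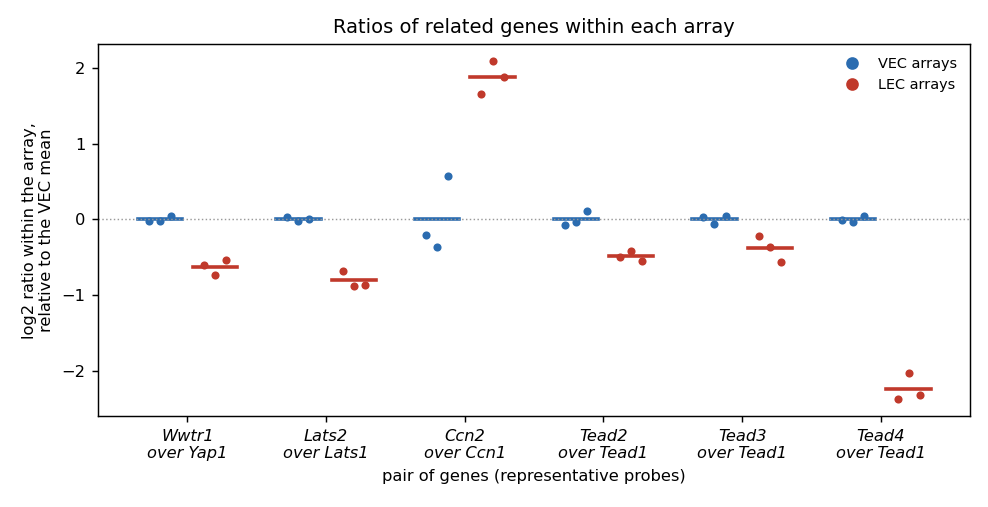
Log2 ratio of the representative probes of related genes within each array, relative to the VEC mean of that ratio (y axis), for 6 pairs (x axis), on VEC arrays (blue) and LEC arrays (red), with a line at each group mean. Ccn2 over Ccn1 is shifted up by 1.88 in LECs and Tead4 over Tead1 down to -2.24.

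Upstream of Lats1 and Lats2, a list of 20 core kinases and their regulators had 19 genes tested, since no probe was matched to the name Map4k6. LECs had the higher level for 6 of them and the lower for 7, and 6 did not pass, with a median log2 difference of -0.11. This share of calls is near the 66.9% of all named genes tested and is no result about the kinases. Without VEC 4, LEC 7 or LEC 8, 4 were lower. The MST kinase genes themselves, named for their role, differed little: Stk3 (MST2) had a log2 difference of -0.10 (adjusted p = 0.23), and Stk4 (MST1) one of -0.11 (adjusted p = 0.19), though a second Stk4 probe passed at -0.39. Sav1, the scaffold of MST, was 1.16-fold lower in LECs (adjusted p = 0.026). Mob1a and Mob1b, co-activators of LATS, did not pass, with log2 differences of -0.12 and -0.16. Nf2, the gene of merlin, did not pass either (log2 difference 0.18, adjusted p = 0.079), while 1 of its 2 other probes did at 0.39.

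The wide differences of this list lay in genes around that core. Map4k2, a kinase that can act on LATS in parallel to MST, was 10.8-fold higher in LECs, with values of 1.27, 1.27 and 1.32 in VECs and 4.71, 4.64 and 4.82 in LECs. Frmd6, a FERM domain protein gene, was 8.78-fold higher, from -0.67, -0.69 and -0.84 in VECs to 2.39, 2.39 and 2.43 in LECs. Map4k5 was 2.73-fold and Taok3, which acts on MST, 1.42-fold higher. In the other direction, Stk38l, a relative of LATS, was 3.17-fold lower in LECs, Wwc2 of the KIBRA family 2.87-fold, Map4k3 1.91-fold and Map4k1 1.75-fold, the last with 2 of 3 LEC arrays well above background. Members of the MAP4K family were thus called in both directions.

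Of 15 genes of cell polarity and cell junctions that feed into the pathway, LECs were higher for 4 and lower for 6, and 5 missed the threshold, with a median log2 difference of -0.03. The share called is again near the background of 66.9%. Dlg1, a polarity scaffold, was 7.29-fold higher in LECs, Ptpn14, a phosphatase that binds YAP, 4.64-fold, Amot, the gene of angiomotin, which tethers YAP at junctions, 2.86-fold, and Ajuba, which restrains LATS, 2.43-fold. The protocadherin gene Fat4 read 0.75, 0.74 and 0.82 in VECs and -2.39, -3.08 and -2.48 in LECs and was 10.7-fold lower. Dchs1, whose product is the ligand of FAT4, was 2.30-fold lower. Rassf1, which binds MST, was 2.27-fold lower. Both genes of the FAT4 and DCHS1 pair were thus lower in LECs.

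Of 13 genes of STRIPAK, the phosphatase complex that turns MST off, 11 were tested (not Stk26 and Strip2), and 2 were higher, 5 lower and 4 not called, with a median log2 difference of -0.11. This share too is near the background of 66.9%. Without LEC 6, 3 were lower. None of them reached 2-fold. Strn was 1.62-fold and Ppp2ca, the catalytic subunit, 1.18-fold higher in LECs. Strn4 was 1.59-fold, Mob4 1.44-fold, Slmap, which brings the complex to MST, 1.32-fold and Stk25 1.24-fold lower.

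Of 12 partners and turnover factors of YAP, TAZ and TEAD, 9 were tested (not Vgll1, Vgll2 and Runx2). Vgll3, a co-factor that binds TEAD, was 3.07-fold higher in LECs with 1 of 3 VEC arrays well above background, and Runx1 1.88-fold higher with 2 of 3. Csnk1e was lower by its brightest probe (log2 difference -0.47), but its 2 other probes were higher (0.70 and 0.61), so no direction is given. The other 6 did not pass, among them Vgll4, which competes with YAP for TEAD (log2 difference -0.01, adjusted p = 0.96). The median log2 difference of the list was -0.02, and the background of called genes was 66.9% here as well.

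The YAP and TAZ target signature showed wide differences in both directions. Of its 22 genes, 20 were tested, since Ankrd1 and Foxf2 were at background throughout the 6 arrays. LECs were higher for 9 of these and lower for 10, and only Crim1 did not pass, with a median log2 difference of -0.30 and a median size without sign of 1.26. Over all named genes tested, 34.9% were higher and 32.0% lower, and the median size was 0.46. At least 2-fold, 4 were higher and 7 lower. The list holds Ccn1, Ccn2 and Lats2, and shares Ptpn14 with the junction list.

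Myof, a membrane repair gene, read 4.36, 4.33 and 4.46 in VECs and -0.81, -0.37 and -0.85 in LECs, a 33.4-fold lower level. The kinase gene Nuak2 was 22.8-fold lower and Fjx1, whose relative in flies modifies Fat and Dachsous, 8.57-fold lower in LECs. Nt5e, the gene of CD73, stood well above background in VECs and on none of the LEC arrays, which puts it at least 5.52-fold above LECs in VECs. It entered the test through the VEC arrays alone, so no p-value is given for it, though it is among the 10 lower genes counted above. On the other side, Rbms3, which encodes an RNA-binding protein, read -2.03, -2.37 and -1.89 in VECs and 1.90, 1.63 and 1.79 in LECs, a 14.6-fold higher level, and a further probe gave a log2 difference of 1.47. Dock5 was 6.37-fold, Ptpn14 4.64-fold and Tgfb2, a growth factor gene, 3.82-fold higher in LECs. The feedback genes of the signature therefore did not share a direction: Lats2 and Amotl2 (2.84-fold) were lower and Ptpn14 higher.

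**Figure D5:**
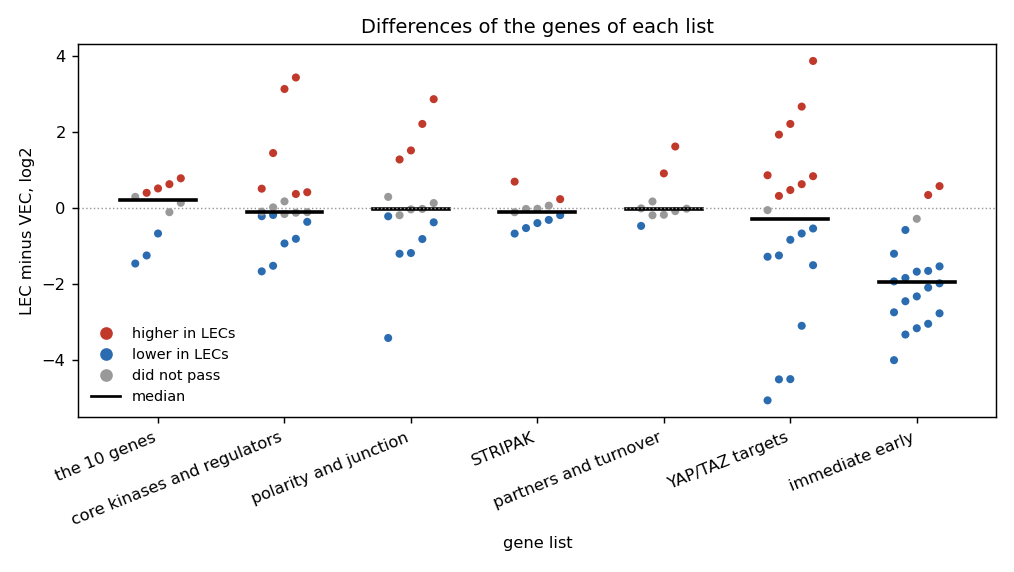
Log2 difference, LEC minus VEC (y axis), of every tested gene of each list (x axis), red where higher and blue where lower in LECs by limma and gray where the gene did not pass, with a line at the median. Target genes reach from -5.06 to 3.87, whereas the STRIPAK genes stay between -0.67 and 0.70.

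Markers of other cells were read on the same arrays, because fibroblasts and smooth muscle cells also express Ccn1, Ccn2 and TEAD genes. All 8 endothelial markers were well above background on every array. In LECs 6 of them were lower, among them Pecam1 (the CD31 of the sort, 2.68-fold) and Cdh5 (1.57-fold). Cldn5 was 4.28-fold higher in LECs, and Tie1 did not pass. All 8 LEC markers were higher and all 8 VEC markers lower in LECs, among them Lyve1 (log2 difference 11.15), Ly6c1 (-4.91) and the gene of the CD90 gate, Thy1 (10.37). Summed levels, in units of each array's 75th percentile, were 2.80 to 3.50 in VECs and 1450 to 1504 in LECs for the LEC list. They were 1684 to 1822 and 40.4 to 53.8 for the VEC list. The populations were therefore far apart by their own markers.

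Of 8 mesenchymal genes, 5 were tested and 3 were higher in LECs, with sums of 0.998 to 1.66 in VECs and 2.33 to 3.1 in LECs, and Pdgfra, Lum and Dpt were not tested. All 10 smooth muscle genes were tested and 3 were lower in LECs, with sums of 51.6 to 61.9 in VECs and 37.7 to 48.9 in LECs. Over all named genes tested, 34.9% were higher and 32.0% lower in LECs, so such counts alone are no result about these cells. Sums of 10 epithelial genes were 4.20 to 6.82 in VECs and 7.20 to 8.49 in LECs, with Epcam, Cdh1 and Krt20 not tested. The epithelial genes split, with Lgals4 (2.26-fold) and Fabp2 (5.43-fold) higher and Krt19 (6.12-fold) and Vil1 (4.17-fold) lower in LECs. Leukocyte sums, over 10 genes, were 80.0 to 85.7 in VECs and 69.6 to 74.4 in LECs, with Ptprc (CD45) well above background on 2 arrays of each group. Most of the leukocyte sum was the Itgam probe, 1.16-fold lower in LECs. Of the 8 leukocyte genes tested, 4 were lower and 3 were higher, the latter being Adgre1 (5.98-fold), Lyz2 (4.48-fold) and Fcer1g (3.50-fold), with Adgre1 well above background on 2 and Lyz2 on 1 of the VEC arrays. Glial and erythroid genes summed to 12.6 to 29.4 in VECs and 2.77 to 4.49 in LECs. Of the 4 tested, 3 were higher in LECs by at least 2-fold, S100b and Sox10 among them. The other, Hba-a1, was lower there, with a log2 difference of -4.57. Mesenchymal sums were thus higher in LECs, as Yap1, Tead1, Tead3 and Ccn2 were. They reached 3.1 there, with 5 of the 8 genes well above background on all LEC arrays and 2 on none. Log2 differences of the 5 tested mesenchymal genes ran from 0.27 to 2.66. Smooth muscle sums were lower in LECs, as Ccn1, Lats2 and Tead4 were, and 7 of the 10 genes were not called. The part of these other cells in the results was not tested.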

How the data were processed

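RNA of 3 VEC and 3 LEC samples was hybridized to one-color Agilent mouse arrays. The authors deposited spot intensities as Agilent Feature Extraction 12.0.3.1 wrote them (per the file headers), background-subtracted and not scaled between arrays, with flags for outliers and for signal well above background. The deposited log2 table of the same arrays equaled log2 intensity minus 1 constant per array (within 0.01 for at least 99.9% of probes, column medians -3.20 to -3.14), so its scale, lack of gene centering and direction are known, and it served as an alternative. Gene Spring GX and ANOVA are named in the study's methods, with no settings.

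Outlier spots were set missing, repeated spots averaged, log2 taken and the 75th percentile of each array (333 to 441 intensity units) subtracted. Probes well above background on all arrays of a group were tested with limma 3.58.1 in R 4.3.3 (lmFit, eBayes, two-sided, Benjamini-Hochberg), after a test on simulated data. No sample was dropped. Depth has no counterpart on arrays: their number limits precision, and 30929 to 35510 probes per array were well above background. Probes were named through RefSeq accessions of GRCm38.p6 (58.3% of probes). The array design follows another build, so gene coordinates are not printed, only those of RefSeq promoter windows. Where a gene had several tested probes, the one brightest on average represented it. All members and their probes are named, and of each other list up to 4 called genes per direction by size, plus the CCN family, sort and cell markers, and genes not tested. Stk3, Stk4, Sav1, Mob1a, Mob1b, Nf2, Vgll4, Crim1 and Amotl2 were named beyond that rule, after their values were seen. The members and lists were chosen with earlier results of these data known. Alternatives covered background correction, scaling, filters, trend, test, slide row, probe choice, threshold and leaving out arrays. The normexp alternative used median spot signals. Items withheld for evaluation are not reported here.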

Additional observations from a re-analysis of the deposited data

How the results depend on the processing

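Over 23 alternative settings, Tead4 kept its call under all. Beside the changes given above for Ccn1, Tead2, Tead3 and Lats1, the direction of Wwtr1 turned with no scaling between arrays (0.12) and with quantile normalization (0.043), and that of Lats1 with the mean of its probes (-0.017), none of them called. No scaling moved the median log2 difference of all tested probes by 0.23, and 12922 of 19838 calls were then higher in LECs, against 10537 of 21603. It left 3 of the core kinase list, 2 of STRIPAK and 0 of the partners lower in LECs. With no filter on dim probes, 1 STRIPAK and 1 dissociation gene were higher and 3 STRIPAK genes lower. With signal on all arrays, 0 partners were higher, and with the methods' one-way test 1 dissociation gene was. With slide row as a block, which like the first row alone rests on LEC 6 for the difference, 4 core kinase genes were lower and 1 STRIPAK, 1 partner and 1 dissociation gene higher. Within the first slide row, 3 core kinase, 3 STRIPAK and 0 partner genes were lower, and 0 STRIPAK, 0 partner and 0 dissociation genes higher. With adjusted p under 0.01, 4 core kinase and 3 STRIPAK genes were lower, and 1 STRIPAK, 1 partner and 1 dissociation gene higher. With at least 2-fold, 0 of the 10 genes, 3 core kinase, 0 STRIPAK, 1 partner, 4 target and 0 dissociation genes were higher, and 2 core kinase, 3 junction, 0 STRIPAK and 0 partner genes lower. The cause of these shifts was not tested, apart from the fewer calls that a stricter threshold allows. Leaving out 1 array at a time gave 4 to 5 core kinase genes lower (7 with all arrays; 4 without VEC 4, LEC 7 or LEC 8), 3 to 4 STRIPAK genes lower (3 without LEC 6) and 1 to 2 dissociation genes higher (1 without LEC 6 or LEC 8). Over the pairs of probes, an alternative chosen after seeing the data, the highest log2 shift was 0.10 for Lats2 over Lats1, 0.31 for Tead2 over Tead1 and 0.41 for Tead3 over Tead1. No paired analysis was made, because the labels do not say which VEC and LEC samples, if any, came from the same mice. Probes not above background, such as those of Ankrd1, Foxf2, Ccn5 and Ccn6, give no difference.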
